A study of Mus musculus with 8 samples.

Results

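The 8 genes described here encode the mouse subunits and partners of WDR5 complexes other than MLL: the NSL acetyltransferase (Kat8, Kansl1, Kansl2, Kansl3, Mcrs1 and Phf20), its associated co-regulator HCF1 (Hcfc1), and OGT (Ogt), the enzyme that modifies and cleaves HCF1. They were found as the probe sets whose single annotated gene symbol was one of these names, a rule that names genes and uses no expression value, although the names were proposed with earlier results of these data known. They are 8 of the 18193 genes that had a probe set of their own, and they carried 24 of 34945 such probe sets. Of the 24 probe sets, 20 exceeded 50 on the linear scale (5.64 on the log2 scale) on at least 1 array, and all 8 genes were among the 11940 genes tested.

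RNA was taken from V6.5 mouse embryonic stem cells (ESCs) and measured on 8 Affymetrix mouse expression arrays. The cells of every group carried a lentiviral shRNA against mouse Wdr5 that was always active, together with a doxycycline-inducible human WDR5, and had been sorted for GFP. The human protein was wild type (WT) or F266A, a phenylalanine to alanine change in the cleft where WDR5 meets RNA and RbBP5, and each line was grown with doxycycline at 2 µg per mL (+dox) or without it (-dox), 2 arrays described as biological duplicates in each of the 4 groups. No second, separately made line of either kind is described, so a difference between the WT and F266A groups cannot be told apart from a difference between 2 infected cell populations. The groups without doxycycline are knockdown cells whose transgene was not induced, and no group has untouched Wdr5.

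WDR5 is a WD-repeat scaffold that many chromatin complexes share. In the NSL complex the acetyltransferase KAT8 (also called MOF) acetylates histone H4 at lysine 16 at active promoters, KANSL1 is the scaffold that holds it and grips WDR5 by the site used for MLL, KANSL2 binds the opposite cleft of WDR5, and KANSL3, MCRS1 and the methyl-lysine reader PHF20 complete the assembly. HCF1 is tethered to promoters by DNA-binding factors and brings histone-modifying enzymes to them, while OGT transfers O-GlcNAc to nuclear proteins and cuts the HCF1 precursor into its mature subunits.

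The knockdown target was read first. Mouse Wdr5 stood at 8.35 and 8.32 (log2 expression) on the WT +dox arrays, at 9.45 and 9.35 in WT -dox, at 8.59 and 8.56 in F266A +dox, and at 9.31 and 9.27 in F266A -dox. Wdr5 was thus higher without doxycycline in both lines, by 1.06 ± 0.07 (log2 difference ± SE, adjusted p = 1.47e-05, limma) in WT and by 0.72 ± 0.07 (adjusted p = 0.000318) in F266A. Between the lines Wdr5 was higher in F266A by 0.24 under doxycycline (adjusted p = 0.0249), a call lost when any one of those 4 arrays was left out (adjusted p from 0.0713 to 0.112). Without doxycycline the difference was -0.11 (adjusted p = 0.271). Whether these probe sets also read the human transgene was not tested. All 8 of the listed ESC markers were above the minimum in these cells, and their summed signal ran from 56400 to 56960 in WT +dox and from 42750 to 45020 in F266A -dox. Of the 8, 6 were called lower in F266A -dox than in WT +dox, where 50.9% of all genes were called. Pou5f1 (-0.12, adjusted p = 0.221) and Utf1 (-0.09, adjusted p = 0.486) were not called. Of 10 fibroblast markers, 5 (Col1a1, Col3a1, Thy1, Postn and Pdgfrb) were below the minimum on every array, and the summed signal of the list was 1054 to 1112 in WT +dox and 4445 to 5524 in F266A -dox. The summed signal of 6 neural markers was 667.4 to 668.3 in WT +dox and 2065 to 2113 in F266A -dox. Within that list Nefl was higher in F266A -dox by 2.45 on the log2 scale, whereas Sox1 was lower by 0.64 (adjusted p = 0.00154). These 3 sums had their extremes in the same groups as Ogt, Phf20 and Hcfc1 below, and their part in those results was not tested. The summed signal of 6 trophectoderm markers was highest in WT +dox (1139 to 1181) and lowest in WT -dox (920.1 to 930.4). Of its 4 genes above the minimum, Cdx2 (0.99), Eomes (0.37) and Krt7 (0.45) were called higher in F266A -dox than in WT +dox. The Cdx2 means were 5.18 in WT +dox, 5.49 in WT -dox, 5.49 in F266A +dox and 6.18 in F266A -dox. By these means Cdx2 cleared the minimum of 5.64 only in the group where it is high, so its call is given as a description. Tfap2c was called lower (-0.77), and 50.9% of all genes were called in that pair. Of 5 endoderm markers, Gata4, Sox17 and Afp were below the minimum on every array. Foxa2 had means of 5.25 in WT +dox and 6.01 in F266A -dox, the only group where its mean was above the minimum. Gata6 had means of 5.5 and 5.39 in these groups and was not called. The sum of the 5 endoderm markers was 134.9 to 137.5 in WT +dox and 164 to 165.9 in F266A -dox. That of 4 measured mesoderm markers was 230.4 to 230.9 and 259.2 to 308.5. In such bulk RNA, fewer cells of a type and less RNA per cell cannot be told apart.

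Ogt and Phf20 were lower in the F266A -dox cells than in either WT group, Hcfc1 was higher in F266A -dox than in WT +dox alone among the 6 pairs of groups, and the 5 remaining NSL subunits passed the test in no comparison. A gene is called here at an adjusted p under 0.05 over all 11940 genes. No member changed 2-fold in any comparison. The range of the 4 group means, a description of how far a gene moved, was 0.57 for Ogt, 0.46 for Phf20 and 0.24 for Hcfc1 on the log2 scale, which are the percentiles 80.4, 71.1 and 38.2 of all genes tested. For Kat8, Kansl1, Kansl2, Kansl3 and Mcrs1 it lay between 0.11 and 0.18, at percentiles from 8.9 to 24.6.

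**Figure D1:**
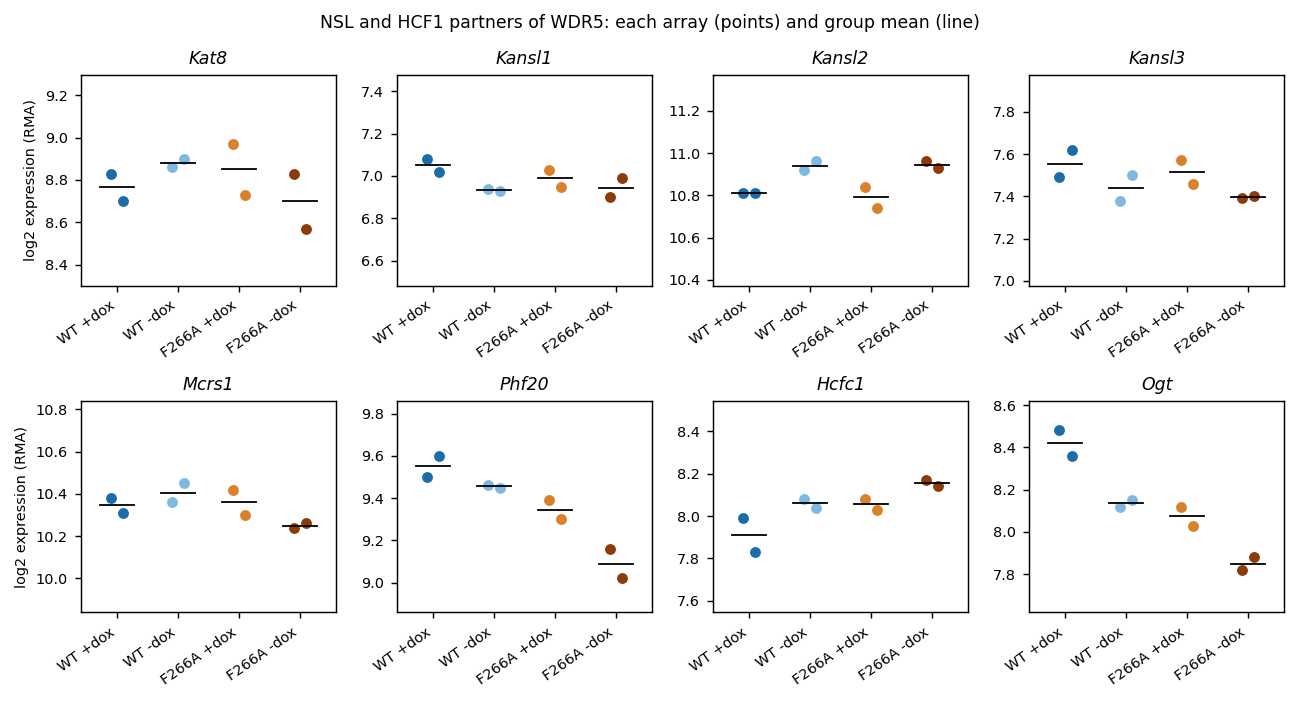
Log2 expression (RMA, y axis) of the 8 genes on each of the 8 arrays (points, 2 per group) with the group mean (line). Every panel spans 1 log2 unit. From WT +dox to F266A -dox the Ogt mean falls from 8.42 to 7.85 and the Phf20 mean from 9.55 to 9.09, whereas the Kansl1 means stay between 6.94 and 7.05.

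None of the counts of called members stood above the share of all genes called in the same comparison. With F266A in place of WT under doxycycline, 1 of 8 members was called (Ogt, lower), where 28.3% of all genes were called. When WT was withdrawn, 1 of 8 was called (Ogt, lower) against 31.5%, and when F266A was withdrawn, 1 of 8 (Phf20, lower) against 19.5%. Between the lines without doxycycline 2 of 8 were called (Ogt and Phf20, lower) against 27.4%. F266A +dox and WT -dox differed in 0 of 8 members against 13.5%, and 0 members had an unadjusted p under 0.05 there. The widest pair, F266A -dox and WT +dox, had 3 of 8 called against 50.9%. These comparisons share arrays and do not count as separate evidence.

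The difference between the lines' responses to withdrawal, the interaction, was called for 0 of 8 members against 5.15% of all genes, and 0 members had an unadjusted p under 0.05. Its 95% interval ran from -0.61 to 0.08 for Kat8 and from -0.17 to 0.29 for Ogt. With 2 arrays per group, differences between the responses that lie within these intervals are not excluded. The median difference over the 8 members was -0.03 in F266A +dox minus WT +dox and -0.10 in F266A -dox minus WT +dox, against 0.003 and 0.002 over all genes.

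**Figure D2:**
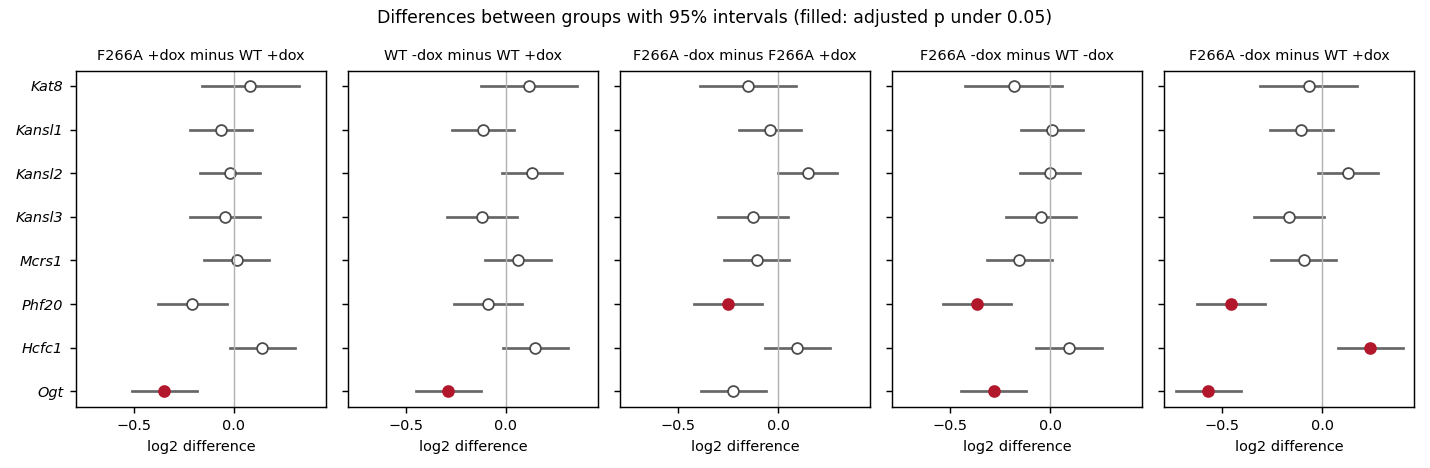
Log2 differences (x axis) of the 8 genes in 5 comparisons, with 95% intervals from limma (lines). Filled points passed the test over all genes, which only Ogt, Phf20 and Hcfc1 did, and the largest difference is that of Ogt in F266A -dox minus WT +dox, -0.57.

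Ogt had the widest range of group means of the 8 genes, an order that depends on the probe sets read. With the highest-mean probe set of each gene, the difference between F266A -dox and WT +dox was -0.43 for Ogt (1460631_at) and -0.50 for Phf20 (1426961_at). As the mean of its probe sets, Ogt stood at 8.48 and 8.36 in WT +dox, at 8.12 and 8.15 in WT -dox, at 8.12 and 8.03 in F266A +dox, and at 7.82 and 7.88 in F266A -dox. Both WT +dox arrays lay above all others and both F266A -dox arrays below all others, while WT -dox and F266A +dox touched at 8.12. Between WT +dox and F266A -dox the arrays of 74.8% of all genes did not overlap. Ogt was lower by 0.35 ± 0.07 in F266A +dox than in WT +dox, a level 21.4% lower (adjusted p = 0.00652, limma). It was 18.1% lower in WT -dox than in WT +dox (-0.29, adjusted p = 0.0145) and 17.8% lower in F266A -dox than in WT -dox (-0.28, adjusted p = 0.0177). Against WT +dox, F266A -dox held 32.7% less Ogt signal (-0.57, 95% interval -0.73 to -0.41, adjusted p = 0.000158).

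In the order of groups from high to low, then, WT +dox differed from its neighbour WT -dox. The next pair, WT -dox and F266A +dox, did not differ beyond the spread (-0.06, interval -0.22 to 0.10, adjusted p = 0.649). The fall of 0.22 on withdrawal of F266A had an adjusted p of 0.0576 and was not called. Leaving out the first WT +dox array, the higher of its pair, brought the Ogt difference between the lines under doxycycline to -0.29 with an adjusted p of 0.0507, the highest of 17 alternatives that began at 0.00183. The Ogt difference on withdrawal of WT was not called without that array (adjusted p = 0.096), without WT -dox replicate 1 (0.0812) or without WT -dox replicate 2 (0.059). That between the lines without doxycycline was not called without WT -dox replicate 1 (0.0669), WT -dox replicate 2 (0.0984) or F266A -dox replicate 1 (0.0746).

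All 5 Ogt probe sets had a negative difference between F266A -dox and WT +dox, from -0.85 to -0.30, and 4 of them passed the test over the 20046 probe sets, of which 47% were called. Probe set 1436780_at, 1 of those 4, had the largest difference, with 6.06 and 5.85 in WT +dox against 4.99 and 5.21 in F266A -dox. Outside WT +dox it reached at most 5.64, the minimum itself. It thus cleared the minimum plainly only in the group where it is high, and its difference and its call are given as a description. The Ogt mean, -0.57 in this pair, includes it. With the minimum raised to 100, which leaves this probe set out, Ogt was still lower by 0.29 in F266A +dox (adjusted p = 0.0084) and by 0.50 in F266A -dox (adjusted p = 0.000127) than in WT +dox. Probe set 1451738_at was the one not called in that pair (-0.30, adjusted p = 0.053), and its WT -dox and F266A -dox arrays overlapped. Taken alone, the Ogt probe set with the highest mean, 1460631_at, gave -0.12 on withdrawal of WT (adjusted p = 0.247 over all probe sets) and was not called, so the size of that change depended on the probe set read.

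Ogt lies on chromosome X, as does Hcfc1, which moved the other way. The median difference of the 362 chromosome X genes was 0.05 between F266A -dox and WT +dox. The sequence upstream of the gene is shown because Ogt was lower than in WT +dox in each of the other groups. In 4 motifs searched on both strands in RefSeq promoter windows of 300 bases (250 before and 50 after each start, assembly GRCm38.p6), 1 of the 2 Ogt windows held GCATGCG, part of the site of the activator NRF1, and neither held any of the others. The match starts 143 bases before the start used for that window on one strand and 142 on the other. The 2 overlap because the letters are nearly a palindrome, and the match is set in capitals. The printed stretch ends before the gene's annotated start at 101640011, so it stops short of the start used for the window.
Ogt, chrX:101639801-101640010, + strand: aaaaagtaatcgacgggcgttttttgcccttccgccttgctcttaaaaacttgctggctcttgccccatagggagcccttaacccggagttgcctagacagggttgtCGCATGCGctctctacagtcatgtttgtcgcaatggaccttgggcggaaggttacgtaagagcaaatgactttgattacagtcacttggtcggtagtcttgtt

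Of the 12 windows of the 8 members this is the only 1 with GCATGCG, which 3.58% of all 32851 windows hold. The core of the site of ZFP143 and THAP11, which recruit HCF1, is ACTACAA and was in 0 of the 12 and in 3.24% of all windows. The TATA box, searched as TATAAA, was likewise in 0 of 12 and in 13.6% of all. The motif of ETS factors such as GABPA, CCGGAAG, was in 3 of the 12, those of Kat8, Mcrs1 and Hcfc1, and in 8.86% of all. A match of letters is a description and not a binding site.

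The enzymes that supply and remove O-GlcNAc were read beside Ogt from a list of 10 genes, all of them tested. Between F266A -dox and WT +dox, 2 were called higher and 6 lower, with a list median of -0.33, against 50.9% of all genes called and a median of 0.002. Gnpda1, a deaminase that takes glucosamine 6-phosphate out of the pathway, had mean values of 10.48 and 9.35 in these groups, a difference of -1.13 ± 0.10 (adjusted p = 1.44e-05, limma). Gfpt2, one of the paired enzymes that commit glucose to hexosamine synthesis, fell from 9.93 to 9.12 (-0.81, adjusted p = 8.28e-06). Nagk, the kinase that salvages GlcNAc, rose from 7.24 to 7.81 (0.57, adjusted p = 0.000363).

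The group means of Gnpda1 and Gfpt2 came in the same order as those of Ogt. In WT -dox Gnpda1 stood at 9.81 and Gfpt2 at 9.63, and under F266A +dox they stood at 9.76 and 9.38. Under doxycycline, Gnpda1 was lower in F266A by 0.72, Gfpt2 was lower by 0.55, and Nagk was higher by 0.30 (all called, 1 higher and 3 lower of 10, where 28.3% of all genes were called). On withdrawal of WT 4 were called lower and 0 higher, against 31.5% of all genes, among them Gnpda1 (-0.67), Amdhd2, a deacetylase of GlcNAc 6-phosphate (-0.35), and Gfpt2 (-0.30). On withdrawal of F266A 2 were called higher and 5 lower, against 19.5% of all genes, the largest being Amdhd2 (-0.42), Gnpda1 (-0.41) and Gnpda2, the paralog of Gnpda1 (-0.34). Between the lines without doxycycline 2 were higher and 4 lower, against 27.4% of all genes, and Nagk (0.65), Gfpt2 (-0.51) and its paralog Gfpt1 (0.49) had the largest differences. The paralogs Gfpt1 and Gfpt2 therefore differed in opposite directions in that comparison.

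Oga encodes the hydrolase that removes O-GlcNAc, and was looked at after its values had been seen because it opposes OGT. Its means were 8.33 and 8.43 in the WT line, with and without doxycycline, and 8.51 and 8.41 in the F266A line. Oga passed the test in no comparison, the largest difference being 0.18 ± 0.07 in F266A +dox minus WT +dox (adjusted p = 0.0832).

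**Figure D3:**
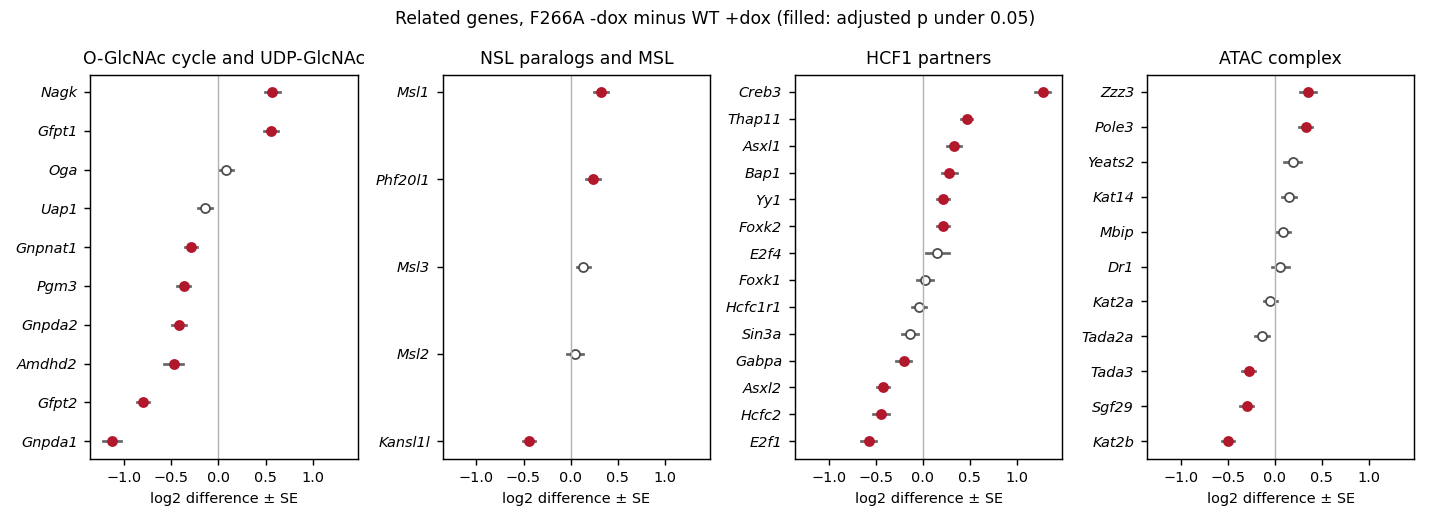
Log2 differences between F266A -dox and WT +dox (x axis, lines: ± SE) of the tested genes of 4 related lists. Filled points passed the test over all genes: 8 of 10 for O-GlcNAc and its sugar donor, 3 of 5 for the NSL paralogs and MSL subunits, 10 of 14 for the HCF1 partners and 5 of 11 for the ATAC complex, where 50.9% of all genes passed.

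PHF20 reads methylated lysines for the NSL complex through its Tudor domains. Phf20 stood at 9.50 and 9.60 in WT +dox, at 9.46 and 9.45 in WT -dox, at 9.39 and 9.30 in F266A +dox, and at 9.16 and 9.02 in F266A -dox. None of these pairs overlapped, a state shared by 74.8% of all genes between F266A -dox and WT +dox. Both F266A -dox arrays lay lowest, with a mean 27.1% below WT +dox (-0.46 ± 0.08, adjusted p = 0.000866, limma) and 22.4% below WT -dox (-0.37, adjusted p = 0.00683). These 2 Phf20 differences were called in each of the 17 alternative settings.

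The other Phf20 comparisons were less firm. On withdrawal of F266A, Phf20 fell by 0.25 with an adjusted p of 0.0479. That call held in 6 of 17 alternatives and was lost without any one of 7 of the 8 arrays, with adjusted p up to 0.227. Between the lines under doxycycline the difference was -0.21 (interval -0.38 to -0.04, adjusted p = 0.0708). That difference was called in 4 of 17 alternatives: with the highest-mean probe set (adjusted p = 0.0315), with quantile normalization (0.0259), with a trended and robust prior (0.0282) and with replicate numbers crossed between the lines as a block (0.04), while over all alternatives its adjusted p reached 0.282. On withdrawal of WT the Phf20 difference was -0.09 (interval -0.26 to 0.08, adjusted p = 0.407). Whether withdrawal acted differently on Phf20 in the lines was tested as the interaction, which was -0.16 ± 0.11 (adjusted p = 0.434).

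The 4 Phf20 probe sets that passed the minimum ran together. Each was called lower in F266A -dox, by 0.38 to 0.50 against WT +dox and by 0.30 to 0.41 against WT -dox, where 21.8% of all probe sets were called. The remaining probe set, 1458017_at, stayed between 4.9 and 5.51 and below the minimum on every array. Phf20 lies on chromosome 2, and the sequence before its annotated start, printed as that of the other gene that fell, held none of the 4 motifs. Of its bases 64% were G or C, against 49.5% of those printed for Ogt.
Phf20, chr2:156196397-156196646, + strand: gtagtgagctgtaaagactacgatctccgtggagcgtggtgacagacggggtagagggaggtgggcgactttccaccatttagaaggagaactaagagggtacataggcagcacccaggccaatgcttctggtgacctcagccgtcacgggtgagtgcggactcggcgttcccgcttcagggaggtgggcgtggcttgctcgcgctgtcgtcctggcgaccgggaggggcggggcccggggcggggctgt

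**Figure D4:**
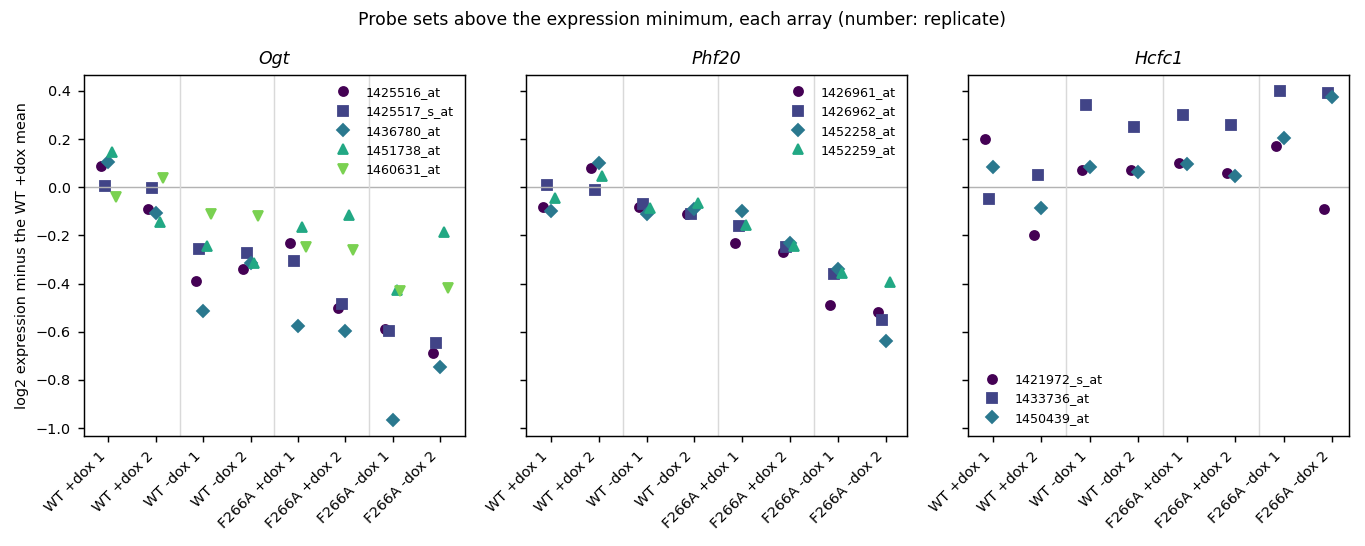
Log2 expression relative to the mean of the WT +dox arrays (y axis) on each array (x axis, number: replicate) for every probe set of Ogt, Phf20 and Hcfc1 above the minimum (markers). The 4 Phf20 probe sets lie close together, those of Ogt spread from -0.30 to -0.85 in the mean of F266A -dox, and 1 of the 3 Hcfc1 probe sets sits highest on all arrays outside WT +dox.

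HCF1 was the member that rose. Hcfc1 stood at 7.99 and 7.83 in WT +dox, at 8.08 and 8.04 in WT -dox, at 8.08 and 8.03 in F266A +dox, and at 8.17 and 8.14 in F266A -dox. The WT +dox arrays were lowest and the F266A -dox arrays highest, without overlap, as for 74.8% of all genes between these groups. The arrays of the other 2 groups overlapped. Hcfc1 was 18.2% higher in F266A -dox than in WT +dox (0.24 ± 0.07, adjusted p = 0.0204, limma). The Hcfc1 call was lost without WT +dox replicate 2, the lowest array (0.16, adjusted p = 0.145), and without F266A -dox replicate 1 (0.22, adjusted p = 0.0761). It was also lost in a fit of those groups alone (adjusted p = 0.0524), and over all alternatives its adjusted p ran from 0.00129 to 0.145.

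The 3 Hcfc1 probe sets disagreed. Probe set 1433736_at was at 10.07 and 10.17 in WT +dox and between 10.37 and 10.52 on all other arrays, and was called higher in WT -dox (0.30, adjusted p = 0.0182), in F266A +dox (0.28, adjusted p = 0.0248) and in F266A -dox (0.40, adjusted p = 0.00232). Probe set 1421972_s_at gave 0.04 in F266A -dox minus WT +dox (adjusted p = 0.852), with its WT +dox arrays at 7.34 and 6.94. Its suffix marks probes that match more than a single transcript, as it does for the only Kat8 probe set, 1432080_s_at, and for the called Ogt probe set 1425517_s_at. Probe set 1450439_at was called higher in F266A -dox alone (0.29, adjusted p = 0.0261). At the probe set level 24.9% of all probe sets were called in F266A +dox minus WT +dox and 27.5% in WT -dox minus WT +dox. The mean of the 3 Hcfc1 sets was called in neither (0.14, adjusted p = 0.174, and 0.15, adjusted p = 0.158).

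Matches to CCGGAAG are shown for Hcfc1, where the match begins 86 bases before the start, and for Mcrs1, where it begins 26 bases before it, with the motif in capitals. RefSeq's entry for Hcfc1 as a whole extends upstream of this start, so the Hcfc1 site lies inside the gene's annotated span.
Hcfc1, chrX:73966425-73966454, - strand: ttccacccgccCCGGAAGccagccagtgct
Mcrs1, chr15:99251969-99251998, - strand: tccaggacgaaCCGGAAGagatcgtccaac

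Of 15 listed partners of HCF1, 14 were tested, and Zfp143 had no probe set of its own. Between F266A -dox and WT +dox 6 were called higher and 4 lower, against 50.9% of all genes. Creb3, a membrane-anchored activator that binds HCF1, rose from a mean of 7.43 to 8.70 (1.27 ± 0.08, adjusted p = 2.22e-06, limma), and was the only gene of this list to change 2-fold. E2f1, the cell cycle factor that HCF1 joins at promoters, was lower by 0.58 (adjusted p = 0.000276), and Thap11, a zinc finger protein that recruits HCF1 in ESCs, was higher by 0.47 (adjusted p = 0.000216). Creb3 also differed between the lines at the same dose, being higher in F266A by 0.97 under doxycycline (adjusted p = 3.9e-05) and by 0.97 without it (adjusted p = 4.54e-05).

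The other comparisons are given beside their own shares of all genes called. In F266A +dox minus WT +dox 1 partner of 14 was higher (Creb3) and 1 lower (E2f1, -0.29), against 28.3%. In F266A +dox minus WT -dox 2 were higher and 0 lower, against 13.5%. On withdrawal of WT 5 were higher and 2 lower, against 31.5%, led by Hcfc1r1, an HCF1-binding regulator (-0.41), and by Asxl1 (0.35) and Asxl2 (-0.31), paralogous partners of the deubiquitinase BAP1. On withdrawal of F266A 2 were higher (Creb3, 0.31, and Thap11, 0.29) and 3 lower, led by Hcfc2, the HCF1 paralog (-0.37), against 19.5%. Between the lines without doxycycline 3 were higher and 4 lower, against 27.4%, with Creb3, E2f1 (-0.40) and Hcfc2 (-0.39) the largest.

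The acetyltransferase and the body of the NSL complex did not pass the test. Kat8, the catalytic subunit, was at 8.83 and 8.70 in WT +dox, at 8.86 and 8.90 in WT -dox, at 8.97 and 8.73 in F266A +dox, and at 8.83 and 8.57 in F266A -dox. Its duplicates lay farthest apart in F266A -dox, and the largest difference between groups was -0.18 ± 0.11 in F266A -dox minus WT -dox (interval -0.42 to 0.06, adjusted p = 0.246, limma). Kat8 was read by a single probe set and had the widest spread within groups of the 8 members (pooled SD 0.135).

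Kansl1, the scaffold, was at 7.08 and 7.02 in WT +dox, at 6.94 and 6.93 in WT -dox, at 7.03 and 6.95 in F266A +dox, and at 6.90 and 6.99 in F266A -dox. The largest difference between groups was -0.11, in WT -dox minus WT +dox (adjusted p = 0.247), and the interval of F266A +dox minus WT +dox was -0.22 to 0.09. Of its 5 probe sets 3 passed the minimum, and the other 2 stayed under 4.9 on all arrays.

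Kansl2, whose protein occupies the cleft of WDR5 that contains F266, had tight duplicates. It was at 10.81 on both WT +dox arrays, at 10.92 and 10.96 in WT -dox, at 10.84 and 10.74 in F266A +dox, and at 10.96 and 10.93 in F266A -dox. All 4 arrays without doxycycline lay above the 4 with it. Of all 11940 genes, 8064 had no overlap on withdrawal of WT and 7154 on withdrawal of F266A, in either direction. How many lay higher in both was not computed. The Kansl2 difference was 0.13 on withdrawal of WT (adjusted p = 0.171, limma) and 0.15 on withdrawal of F266A (adjusted p = 0.152). Neither was called. With a trended and robust variance prior the latter had an adjusted p of 0.0456, the lowest of 17 alternatives that reached 0.897. Between the lines Kansl2 differed by -0.02 with doxycycline (interval -0.17 to 0.13) and by less than 0.01 without it (interval -0.15 to 0.15).

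Kansl3 lay between 7.38 and 7.62 on the 8 arrays, and Mcrs1 between 10.24 and 10.45. The largest difference of Kansl3 was -0.17 ± 0.08 in F266A -dox minus WT +dox (interval -0.34 to 0.01, adjusted p = 0.105). That of Mcrs1, a forkhead-associated domain protein also found in the INO80 complex, was -0.15 ± 0.07 in F266A -dox minus WT -dox (interval -0.32 to 0.01, adjusted p = 0.152). For the 5 subunits the intervals of F266A +dox minus WT +dox all lay between -0.22 and 0.32. A 2-fold change lies outside them, while smaller changes within them are not excluded.

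Kat8 also serves the MSL complex, and several NSL subunits have paralogs, so 5 relatives were read beside them. Between F266A -dox and WT +dox, Kansl1l, the Kansl1 paralog, was lower by 0.44 ± 0.07 (adjusted p = 0.000512, limma), with means of 6.05 in WT +dox, 5.81 in WT -dox, 5.88 in F266A +dox and 5.61 in F266A -dox. Msl1, the MSL scaffold, was higher by 0.32 (adjusted p = 0.0053), and Phf20l1, the Phf20 paralog, was higher by 0.23 (adjusted p = 0.0262). Phf20 and Phf20l1 thus differed in opposite directions in this pair. Of the 5 relatives 2 were called higher and 1 lower there, against 50.9% of all genes. Under doxycycline 1 relative was called higher in F266A (Phf20l1, 0.29, adjusted p = 0.0186) and 0 lower, against 28.3% of all genes.

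Msl3, the chromodomain subunit of MSL, fell by 0.46 on withdrawal of WT (adjusted p = 0.00124) and differed by 0.05 on withdrawal of F266A (adjusted p = 0.664). On withdrawal of WT Kansl1l was the other gene called (-0.24), so 2 of 5 were lower, against 31.5% of all genes called. On withdrawal of F266A Kansl1l was called alone (-0.27), against 19.5%. Between the lines without doxycycline Msl3 was higher by 0.59 and Kansl1l lower by 0.21 in F266A, 2 of 5 called against 27.4%.

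The ATAC acetyltransferase, a further complex that contains WDR5, was represented by 11 genes. Between F266A -dox and WT +dox 2 were called higher and 3 lower, against 50.9% of all genes. Kat2b, one of its exchangeable acetyltransferases, was lower by 0.50 ± 0.07 (adjusted p = 0.000261, limma), Zzz3 was higher by 0.35 (adjusted p = 0.00587), and Pole3, a histone-fold subunit, was higher by 0.33 (adjusted p = 0.00402). In F266A +dox minus WT +dox 2 were higher and 2 lower of 11, against 28.3%, led by Sgf29, a reader of methylated H3K4 (-0.37), Yeats2, a reader of acylated lysine (0.28), and Kat2b (-0.27). On withdrawal of WT Dr1 was higher (0.27) and Sgf29 lower (-0.23), against 31.5% of all genes, and on withdrawal of F266A Kat2b alone was lower (-0.23), against 19.5%. Without doxycycline Kat2b (-0.63) and Tada3, an adaptor (-0.30), were lower in F266A, against 27.4%. Kat2a, the paralog of Kat2b, was called in none of these comparisons.

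The genes whose profiles lay nearest to those of Ogt and Phf20 were sought over all 8 arrays, after centring each gene, by the root mean square distance in log2 units. Nearest to Ogt were Inpp5k (0.036), Dnajc22 (0.038) and Scara5 (0.039). The Scara5 group means, from 5.62 in WT +dox to 5.05 in F266A -dox, all lay under the minimum of 5.64, so its profile is one near the floor. Nearest to Phf20 were Kdm4a (0.029), which encodes a histone demethylase, Prxl2b (0.031) and Slc2a8 (0.032). Ogt and Phf20 lay 0.105 from each other. An order with WT +dox highest and F266A -dox lowest was common, being that of 22.2% of all genes and of 3 of the 8 members (Ogt, Phf20 and Kansl3). The reverse order was that of 21.1% of all genes and of 1 member, Hcfc1.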

How the data were processed

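The deposited table holds log2 expression values that the authors obtained with RMA (justRMA, R 2.11.1 per the labels) for 45101 probe sets on 8 arrays, and it was used as deposited. Arrays give no counts, so precision rests on the number of arrays and the spread between duplicates (median SD 0.079). Probe sets with several symbols (932) or none (9160) and 64 controls were left out. As in the study's methods, probe sets above 50 on the linear scale on at least 1 array were averaged per gene. The 4 group means were fitted to all 8 arrays with limma 3.58.1 in R 4.3.3 (4 residual and 5.32 prior degrees of freedom), without a block. The 6 pairs of groups and the interaction were given two-sided tests, whose p-values were adjusted by Benjamini-Hochberg over 11940 genes and, separately, over 20046 probe sets. The study's SAM test was not run, since it permutes 2 against 2 arrays. The fit was tested on simulated data. Alternatives were no minimum or one of 100, the highest-mean probe set, quantile normalization, median centring, the contrast's groups alone, a replicate block, a trended and robust prior, and leaving out each array.

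The members and related lists were chosen with earlier results of these data known. Named were the 8 members and Wdr5 in all comparisons, up to 3 called genes with the largest difference per related list and comparison, and the 3 genes nearest to each of the 2 members with the widest range. Promoter sequences and chromosomes are from RefSeq (GRCm38.p6), where all 8 members matched.

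Duplicates correlated at 0.9957 to 0.9973 and arrays of different groups at 0.9599 to 0.9911. Array medians ran from 5.359 to 5.392. An 18S rRNA control probe set fell from 11.42 and 10.99 in WT +dox to 9.60 and 9.57 in F266A -dox, in the same order of groups as Ogt, and its part in the results was not tested.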

Additional observations from a re-analysis of the deposited data

Results flagged for a closer look

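The response of Msl3 to withdrawal differed between the lines by a test of the difference itself. It was picked as the only called interaction among the 8 members, Wdr5 and the tested genes of the 4 related lists (5, 14, 10 and 11 genes). Over all genes tested 5.15% had a called interaction. Msl3 went from 7.05 and 7.01 in WT +dox to 6.51 and 6.64 in WT -dox. In the F266A line it was 7.14 and 7.09 with doxycycline and 7.16 on both arrays without it. The interaction was 0.50 ± 0.10 on the log2 scale (adjusted p = 0.0229, limma), and it rests on 1 probe set. It was not called without the first WT +dox array (0.48, adjusted p = 0.0774), the first WT -dox array (0.44, 0.0823), F266A +dox replicate 1 (0.53, 0.0754), F266A +dox replicate 2 (0.48, 0.0834) or F266A -dox replicate 2 (0.50, 0.0601).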

How the results depend on the processing

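Among 136 values of called members under other settings, 114 stayed called in the same direction, 22 lost the call and 0 reversed. Of 808 values of members not called, 10 became called, and 33 changed sign without a call on either side. The lower Ogt and Phf20 in F266A -dox than in WT +dox were called in all 17 alternatives each. The count of called members on withdrawal of F266A, 1, was 0 with no expression minimum, with arrays centred on their median and with the 2 groups fitted alone, 2 (Ogt and Phf20) with a minimum of 100, and 3 (with Kansl2 higher) with a trended and robust prior. The count between the lines under doxycycline, 1, was 3 with the highest-mean probe set of each gene (Hcfc1 higher, Ogt and Phf20 lower), 2 with quantile normalization and 2 with the trended prior. On withdrawal of WT the count stayed at 1 with the highest-mean probe set, but the gene changed. Hcfc1 was then called higher (0.30, adjusted p = 0.0114, limma) and Ogt was not called (-0.12, adjusted p = 0.207). With each array left out in turn the count ran from 0 to 1 between the lines under doxycycline and on withdrawal of WT or of F266A, and from 1 to 2 between the lines without doxycycline. The 0 on withdrawal of WT came without WT +dox replicate 1, WT -dox replicate 1 or WT -dox replicate 2.

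The replicate numbers were not taken to pair the arrays, since deviations of same-numbered arrays correlated at -0.176 to 0.165, over 0.1 within each line and under -0.1 between lines. With the replicate block 0 members were called on withdrawal of F266A (Phf20, adjusted p = 0.0676). A crossed pairing of numbers between the lines, chosen after seeing the data, gave 2 called members between the lines under doxycycline. The causes of these changes were not tested. With 2 arrays per group the median standard error of a difference was 0.08, so small differences could be missed.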
